A study of Rattus norvegicus with 35 samples.

Results

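Small RNA from rat livers after 3 days of ketoconazole at 100 mg/kg per day was set against small RNA from the livers of rats given the vehicle for the same time. The comparison takes 6 of the 35 libraries of the study, 3 of the high dose and 3 of the control, and all 763 miRNA rows of the deposited count table. The libraries were chosen by their dose and time labels, not by any measured value. Ketoconazole is an azole antifungal drug that inhibits the fungal sterol 14-demethylase, and in some patients it injures the liver. All rats were male Sprague-Dawley animals aged 6 weeks, dosed by mouth. The high dose group received ketoconazole at 100 mg/kg each day, and the control group received its vehicle, 0.5% methylcellulose. Livers were taken 24 h after the last dose. Where a lower dose is set beside the high dose, it is the middle dose of 30 mg/kg or the low dose of 10 mg/kg, and where another duration is used, it is 7 or 14 days, all in the same strain and vehicle, with 3 libraries a group except the day 14 control, which has 2. The labels number the replicates but do not say whether they come from different rats, so p-values here reflect the spread among libraries, part of which may be technical.

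MicroRNAs (miRNAs) are short RNAs that guide Argonaute proteins to messenger RNAs and lower their translation or stability. A hairpin precursor is cut into a duplex, whose 5p strand and 3p strand can each become a mature miRNA, usually with one of them kept far more often than the other. The bases from position 2 to position 8 of the mature strand, called the seed, do most of the pairing with target messages, so miRNAs with the same seed form a family with shared targets. In the liver, miR-122 is the best known hepatocyte miRNA, and the miR-192, miR-194, miR-22 and miR-148a hairpins are also abundant in hepatocytes.

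Below are the mature sequences of the miRNAs that the results turn on, written 5′ to 3′ from RefSeq (assembly GRCr8), with the seed in capitals. Of the 328 miRNAs tested, 292 matched a sequence by name, and no coordinates are given because the counts were made on another build (rn6). The first set holds several of the largest changes, together with miR-34a-5p and miR-122-5p, which are shown for their known roles in the p53 response and in hepatocytes.
miR-22-5p: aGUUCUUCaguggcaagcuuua
miR-128-3p: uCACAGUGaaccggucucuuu
miR-671: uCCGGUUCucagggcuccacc
miR-191a-5p: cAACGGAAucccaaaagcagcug
miR-331-3p: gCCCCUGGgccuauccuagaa
miR-34a-5p: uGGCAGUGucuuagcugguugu
miR-24-2-5p: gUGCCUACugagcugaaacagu
miR-122-5p: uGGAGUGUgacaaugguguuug
The second set shows both products of 2 hairpins whose strands changed in opposite directions, and the partner of miR-22-5p.
miR-28-5p: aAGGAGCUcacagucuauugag
miR-28-3p: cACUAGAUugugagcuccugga
miR-322-5p: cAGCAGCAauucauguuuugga
miR-322-3p: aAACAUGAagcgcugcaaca
miR-22-3p: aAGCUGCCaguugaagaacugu
The third set shows miRNAs that share a seed. With the seed AUUGCAC, miR-363-3p fell while miR-92a-3p and miR-92b-3p rose. With CCCUGAG, miR-125b-5p fell and miR-351-5p rose, while miR-125a-5p did not pass the test. With GCUACAU, both miRNAs rose.
miR-363-3p: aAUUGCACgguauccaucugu
miR-92a-3p: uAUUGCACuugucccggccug
miR-92b-3p: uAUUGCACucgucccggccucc
miR-125b-5p: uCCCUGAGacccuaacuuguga
miR-125a-5p: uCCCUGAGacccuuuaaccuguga
miR-351-5p: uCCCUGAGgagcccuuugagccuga
miR-221-3p: aGCUACAUugucugcuggguuuc
miR-222-3p: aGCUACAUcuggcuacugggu

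Total miRNA counts ran from 3664286 to 4132191 in the high dose libraries and from 3758063 to 4119950 in the controls, within the range of 2665943 to 9665416 over the series. Before any test, the high dose and control libraries lay in separate clusters of the whole series. On the first principal component of log2 CPM (counts scaled to a common library size), which carried 46.2% of the variance, the high dose libraries scored 5.62 to 5.91 and the controls -9.85 to -5.33. The positive side held 21 libraries, all those of the middle and high doses plus the low dose on day 7. The 14 on the negative side were the controls and the low dose on days 3 and 14. No batch is named in the labels, so a difference between the high dose and control cannot be told apart from whatever else separates the clusters. The high and middle doses of day 3 lie in the same cluster. Among the 6 libraries, control replicate 3 stood apart from its group, at -5.33 on that component. By chi-square per degree of freedom, pairs of high dose libraries differed by 43.1 to 93.5. Control replicates 1 and 2 differed by 59.1, while control replicate 3 differed from them by 220.1 and 255.1.

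At the high dose 115 of 328 tested miRNAs (35.1%) passed the test at an adjusted p of 0.05, 62 of them higher (18.9%) and 53 lower (16.2%). The rises were the larger changes: 40 miRNAs rose and 7 fell by at least 2-fold, and the median log2 fold change was 1.28 among those that rose and -0.65 among those that fell. Over all 328 the median was -0.0, with quartiles of -0.38 and 0.46, and the median standard error (SE) was 0.21. The test was the quasi-likelihood test of edgeR, with p-values adjusted by Benjamini-Hochberg over the 328. All changes are log2 ratios of the high dose over control, and levels are CPM. In 157 of the 328 (47.9%) the 3 high dose and 3 control values did not overlap, 82 of them higher (25.0%) and 75 lower (22.9%), and 109 of the 115 that passed were among these. The remaining 435 rows were too sparse to test, with 208 of the 763 at 0 in all 6 libraries, and the tested rows held at least 99.97% of each library's counts. Without control replicate 3 the number passing was 126, with 63 in each direction. In these whole-liver samples, fewer cells of a type and less of a miRNA per cell cannot be told apart.

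Calls became more frequent with abundance. Under 10 CPM, 8 of 81 miRNAs rose and 2 fell. Between 10 and 100 CPM the counts were 22 and 13 of 116. From 100 to 1000 CPM they were 18 and 19 of 75, and from 1000 to 10000 CPM 8 and 13 of 39. Of the 17 miRNAs at 10000 CPM or above, 6 rose and 6 fell, so 70.6% of the most abundant miRNAs passed the test. The precision of the counts is higher at high abundance, and its part in this trend was not tested.

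**Figure D1:**
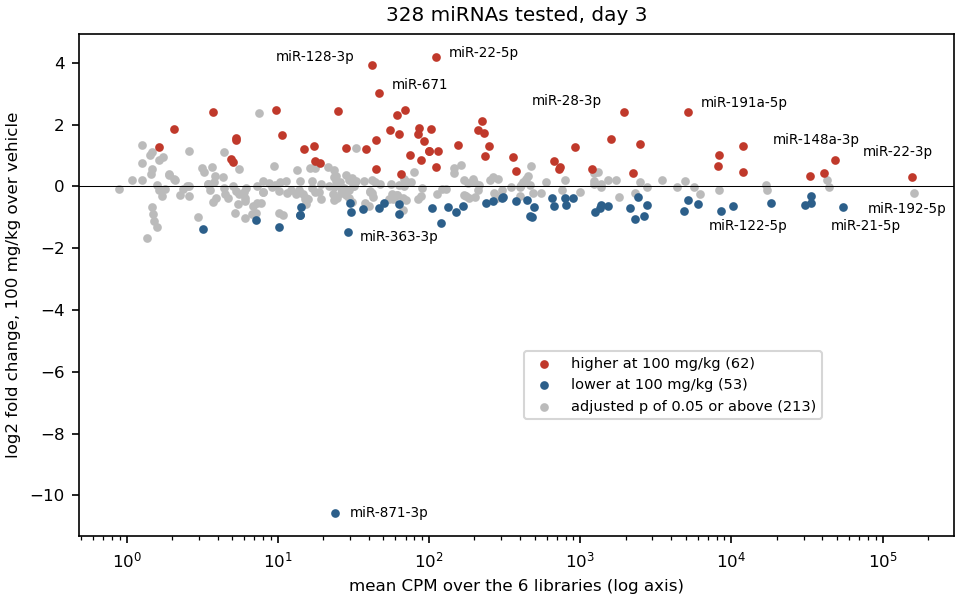
Log2 fold change of the high dose over vehicle on day 3 (vertical axis) against the mean CPM over the 6 libraries (log horizontal axis), 1 point for each of 328 miRNAs. The 62 higher miRNAs reach 4.21, while all but 1 of the 53 lower ones lie above -1.5, and the point at -10.58 is miR-871-3p, which was at 0 in the 3 high dose libraries and rests on 1 control library.

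The largest rise belonged to miR-22-5p, the rarer strand of the hairpin that also gives miR-22-3p. It had 204.5, 204.8 and 223.7 CPM in the high dose livers, against 10.7, 9.99 and 13.6 CPM in control livers. The groups lay far apart, with a mean 18.5-fold higher at the high dose and a log2 fold change of 4.21 ± 0.26 (SE, n = 3 each, edgeR adjusted p = 2.9e-14). miR-128-3p, best known as a brain-enriched miRNA, had 86.7, 73.4 and 76.1 CPM at the high dose and 4.12, 4.22 and 7.14 CPM in controls. It rose by 3.92 ± 0.36, with every high dose library more than 10 times as high as every control. miR-671 had 75.9, 97.4 and 76.1 CPM at the high dose, against 10.2, 5.33 and 15.5 CPM in controls, a log2 fold change of 3.01 ± 0.30.

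miR-222-3p, which with miR-221-3p represses the cell cycle inhibitor p27, had 39.9, 42.3 and 44.0 CPM at the high dose, against 4.85, 4.89 and 13.6 CPM in controls, and rose by 2.44 ± 0.28. miR-221-3p, its neighbour in the genome with the same seed, was at 106.4, 122.9 and 182.1 CPM at the high dose and 38.8, 45.3 and 62.9 CPM in controls, a log2 fold change of 1.48 ± 0.29. In both, every high dose library was above every control, and the highest control was replicate 3. miR-193b-3p, a repressor of cyclin D1 in human cells, rose by 2.32 ± 0.27, with 122.5, 78.3 and 106.9 CPM at the high dose against 17.0, 16.9 and 27.6 CPM in controls. miR-193a-3p, of the same seed, was higher by 0.58 ± 0.21, but its groups overlapped and its call ended without control replicate 1 (0.46), control replicate 2 (0.42), high dose replicate 1 (0.52) or high dose replicate 2 (0.59). miR-221-3p and miR-193a-3p, like the other partners named for a shared seed, hairpin or cluster that the naming rule did not select, were chosen after their values were seen.

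miR-191a-5p was the most abundant of the strong rises, at 8988, 8452 and 8697 CPM in the high dose livers and 1414, 1402 and 2059 CPM in control livers. It was 5.36-fold higher, a log2 fold change of 2.42 ± 0.18 (adjusted p = 4.8e-12). miR-28-3p was next in abundance, with 3371, 3200 and 3234 CPM at the high dose against 561.4, 485.7 and 778.8 CPM in controls, and rose by 2.43 ± 0.19. Both miRNAs varied little among the high dose libraries, and control replicate 3 was the highest of the controls in each. Both strands of the miR-423 hairpin rose together, miR-423-3p by 2.12 ± 0.25 and miR-423-5p by 1.84 ± 0.20. miR-322-3p, the rarer strand of the rodent counterpart of human miR-424, rose by 2.48 ± 0.20. miR-203b-3p rose by 1.86 ± 0.22. miR-331-3p, a repressor of the receptor ERBB2 in human cancer cells, rose by 1.90 ± 0.28, with 124.0, 128.3 and 153.9 CPM at the high dose against 39.3, 42.2 and 27.6 CPM in controls. Control replicate 3 was the highest control for 11 of these 12 largest rises, all but miR-331-3p, so its values lay nearest the high dose. None of the 12 calls was lost when any 1 of the 6 libraries was left out.

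Of the miRNAs that fell, miR-363-3p had the largest change among those with a mean of at least 10 CPM and groups that did not overlap. It comes from the X-linked relative of the miR-17/92 cluster. It had 16.3, 13.7 and 15.8 CPM at the high dose and 38.6, 52.4 and 37.4 CPM in controls, a log2 fold change of -1.49 ± 0.26 (edgeR adjusted p = 2.7e-05). miR-24-2-5p was at 74.0, 76.5 and 71.2 CPM at the high dose, against 158.9, 159.0 and 185.5 CPM in controls, and fell by 1.18 ± 0.18 on the log2 scale. Values of both miRNAs were close among the high dose libraries. miR-6324, a scarce miRNA, changed by -1.30 ± 0.38, with 4.66, 4.28 and 8.70 CPM at the high dose and 16.01, 13.6 and 14.1 CPM in controls.

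miR-99a-5p, which represses mTOR in human cells, had 1520, 1490 and 1510 CPM at the high dose and 3718, 3326 and 2287 CPM in controls, and changed by -1.05 ± 0.21. miR-125b-5p, a repressor of p53 in human and zebrafish cells, had 1797, 1761 and 1857 CPM at the high dose and 3990, 3664 and 2796 CPM in controls, and changed by -0.95 ± 0.17. For these 2 miRNAs control replicate 3 again lay nearest the high dose, as the lowest control. miR-322-5p, which carries the seed of miR-16 and restrains cell cycle genes, had 333.2, 338.9 and 285.8 CPM at the high dose and 708.4, 586.3 and 615.0 CPM in controls, a change of -1.0 ± 0.14. let-7b-5p had 933.4, 855.9 and 917.0 CPM at the high dose and 1690, 1644 and 1449 CPM in controls, a change of -0.82 ± 0.16. The other falls that the naming rule selects were miR-150-5p at -0.96 ± 0.19, miR-466b-2-3p at -0.91 ± 0.22, miR-141-3p at -0.90 ± 0.31 and miR-1249 at -0.84 ± 0.20. miR-466b-4-3p holds the same counts as miR-466b-2-3p in every library and is counted here with it. The fall of miR-141-3p no longer passed without control replicate 3 (-0.72) or high dose replicate 1 (-0.74) or 2 (-0.75).

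**Figure D2:**
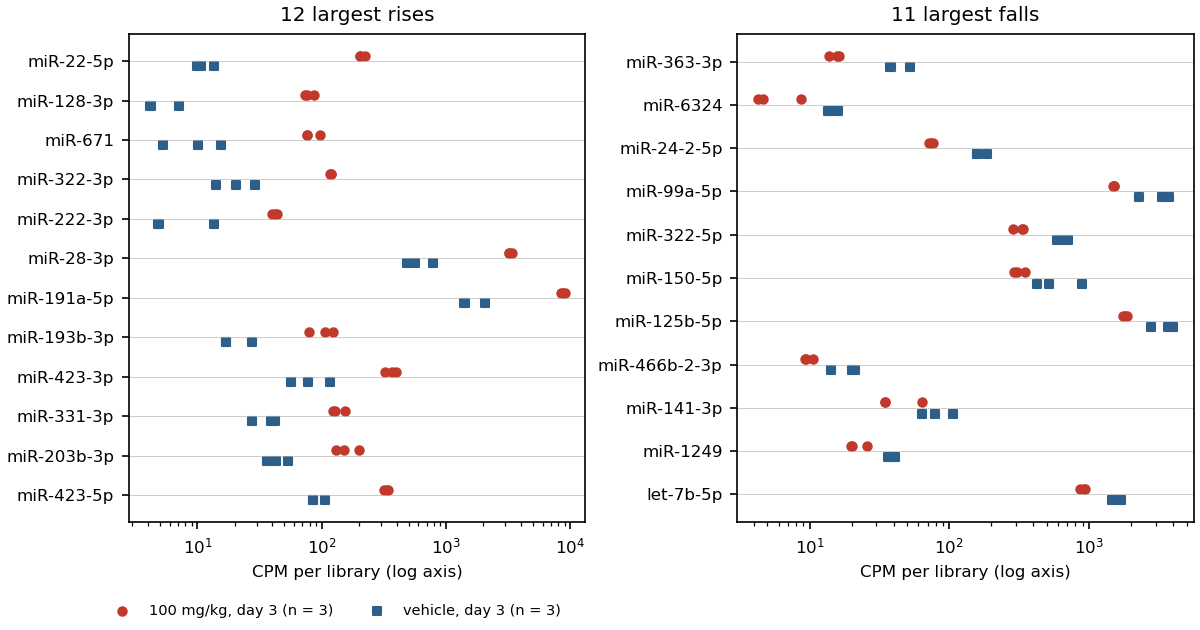
CPM in each library (log horizontal axis) among miRNAs with a mean of at least 10 CPM. The 12 largest rises are on the left and the 11 largest falls measured separately on the right. Circles mark the 3 high dose libraries and squares the 3 vehicle libraries of day 3. The rises leave a wide gap between the groups, as in miR-22-5p at 204.5 to 223.7 against 9.99 to 13.6 CPM, while the falls leave a narrow one, as in let-7b-5p at 855.9 to 933.4 against 1449 to 1690 CPM.

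The most abundant miRNAs shifted against each other. The 10 most abundant together took 70.8% ± 0.778 of the counts at the high dose and 69.8% ± 0.332 in controls (SD, n = 3 each). miR-22-3p took 18.6% ± 0.43 at the high dose and 15.3% ± 1.18 in controls, which made it the most abundant miRNA of the high dose livers. miR-192-5p, the most abundant of the controls, took 16.1% ± 0.216 at the high dose and 18.8% ± 1.58 in controls. The fitted change of miR-22-3p was 0.31 ± 0.10 (edgeR adjusted p = 0.022), and it no longer passed without control replicate 2 (0.25) or high dose replicate 1 (0.28). Its call was also lost with no low-count filter (0.34) and with a filter of 10 CPM in at least 3 libraries (0.25). The fitted change of miR-192-5p, -0.20 ± 0.10, did not pass (adjusted p = 0.112). It passed without control replicate 3 (-0.31), with library size alone as scaling (-0.22) and with only miRNAs of at least 100 CPM fitted (-0.23).

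miR-148a-3p, which is known in liver to repress the low-density lipoprotein receptor, showed the clearest rise among these 10. It had 62220, 58880 and 66270 CPM at the high dose, against 36860, 34610 and 33090 CPM in controls, and rose by 0.84 ± 0.14. Its partner miR-148a-5p rose as well, by 1.37 ± 0.21, with 3583 ± 119 CPM at the high dose and 1382 ± 269 CPM in controls. miR-378a-3p, encoded within the gene of the metabolic coactivator PGC-1 beta, rose by 0.42 ± 0.12, and miR-30a-5p by 0.35 ± 0.09. miR-10a-5p, encoded in a Hox gene cluster, changed by -0.53 ± 0.12, with a share of 2.96% ± 0.0829 at the high dose and 4.34% ± 0.205 in controls. miR-21-5p, which is often raised in inflammation and fibrosis, changed by -0.67 ± 0.18, with 35630, 52520 and 38940 CPM at the high dose and 79610, 70840 and 51610 CPM in controls. Its groups overlapped, since high dose replicate 2 was above control replicate 3, and its call ended when only these 6 libraries were fitted (-0.61). miR-27b-3p, at -0.31 ± 0.11, was no longer called without control replicate 2 (-0.23) or high dose replicate 2 (-0.28) or 3 (-0.27). miR-26a-5p, at -0.01 ± 0.12, and miR-143-3p, at 0.20 ± 0.11, did not pass, and miR-143-3p did so without control replicate 3 (0.33).

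Hepatocyte-abundant miRNAs went in both directions. Of the 14 on that list, 6 rose and 3 fell, against 18.9% higher and 16.2% lower over all miRNAs, with a median of 0.18, and their summed level was 484000 to 503800 CPM at the high dose and 433200 to 468700 CPM in controls. The falls were those of miR-122-5p, miR-122-3p and miR-194-5p. miR-122-5p, whose release into blood is used as a sign of liver injury, had 26000, 23470 and 23280 CPM at the high dose and 39400, 38890 and 32720 CPM in controls. The groups did not overlap, and its change was -0.61 ± 0.14 (edgeR adjusted p = 0.0011). miR-122-3p, from the same hairpin, changed by -0.69 ± 0.16 and miR-194-5p by -0.43 ± 0.12.

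Over all 328 miRNAs 35.1% passed, 18.9% higher and 16.2% lower, and the counts of the lists below stand beside these shares. In the p53-linked list miR-34a-5p, which p53 induces in many mammalian cells, was the only 1 of 4 tested members to pass. It had 72.5, 35.6 and 53.4 CPM at the high dose and 18.4, 29.3 and 22.4 CPM in controls, a log2 fold change of 1.197 ± 0.30 (adjusted p = 0.0018). The spread among the high dose libraries was wide, but the lowest of them was above the highest control. miR-34b-5p and miR-34c-5p, from another locus, were at 0.56 ± 0.47 and -0.39 ± 0.27, and miR-34c-3p at -0.08 ± 0.84. miR-215 was not analysed here. None of the 5 sterol-linked miRNAs tested passed. Among them miR-33-5p, which lies within the sterol regulator gene Srebf2 and represses the cholesterol transporter Abca1, was at -0.29 ± 0.17, and miR-33-3p, from the same hairpin, at -0.45 ± 0.20. miR-33-3p did pass with a filter of 10 CPM in at least 3 libraries (-0.50) and with day 3 libraries alone (-0.47). Of 8 inflammation-linked miRNAs only miR-21-5p passed, while miR-155-5p was at -0.58 ± 0.27 and miR-21-3p at -0.38 ± 0.21. miR-155-5p passed without control replicate 1 (-0.79) and miR-21-3p without high dose replicate 2 (-0.72).

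The let-7 family, which restrains growth genes such as Ras and Lin28, had 5 of 9 members lower and 0 higher, against 16.2% lower over all miRNAs. Its median was -0.37, against -0.0 over all. let-7c-5p changed by -0.81 ± 0.16, let-7a-5p by -0.64 ± 0.13 and let-7d-5p by -0.59 ± 0.12. The summed level of the 9 was 36830 to 41040 CPM at the high dose and 48860 to 50590 CPM in controls, so the groups did not overlap. The miR-15/16 family, which restrains the cell cycle, had 4 of 6 lower and 0 higher, with a median of -0.62. miR-16-5p, its most abundant member, had 7067, 5617 and 5919 CPM at the high dose and 11170, 12180 and 8885 CPM in controls, a change of -0.79 ± 0.16. miR-15a-5p changed by -0.64 ± 0.15 and miR-497-5p by -0.61 ± 0.16, and miR-15b-5p, at -0.30 ± 0.18, did not pass.

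Among 5 members of the miR-99, miR-100 and miR-125 families 3 fell, against 16.2% lower over all miRNAs: miR-99a-5p, miR-125b-5p and miR-100-5p, the last at -0.63 ± 0.25. The miR-100-5p call ended without control replicate 1 (-0.63) or 2 (-0.57), or high dose replicate 1 (-0.62) or 2 (-0.51). The 5 miR-30 miRNAs leaned the other way, with 3 higher and 0 lower, against 18.9% higher over all miRNAs. miR-30d-5p had 17590, 16330 and 17240 CPM at the high dose, against 6454, 5797 and 8171 CPM in controls, and rose by 1.32 ± 0.16. miR-30e-5p rose by 0.47 ± 0.12, and the family sum was 72740 to 80510 CPM at the high dose and 52750 to 54330 CPM in controls. Of 11 members of a list of the miR-17/92 cluster, its paralogs and their seed relatives, 2 rose and 1 fell, and of these miR-92b-3p is a seed relative from outside the clusters. Of the 3 miR-29 miRNAs, which repress collagen genes, miR-29b-3p fell, at -0.73 ± 0.17, while miR-29a-3p (0.15 ± 0.20) and miR-29c-3p (0.25 ± 0.19) did not pass. Neither product of the hypoxia-induced miR-210 hairpin passed, with miR-210-3p at 0.20 ± 0.15 and miR-210-5p at -0.63 ± 0.27, though miR-210-5p did without control replicate 3 (-0.88). Of 22 miRNAs listed for the Dlk1-Dio3 imprinted cluster 8 could be tested and 0 passed. Their median was 0.57 and their summed level 98.6 to 196.0 CPM at the high dose and 52.4 to 153.2 CPM in controls, with miR-495 and miR-543-3p at 0 in all 6. In that cluster miR-434-3p, at 1.25 ± 0.50, passed without control replicate 2 (1.98) or high dose replicate 3 (1.43), and miR-136-3p, at 0.61 ± 0.48, without control replicate 2 (1.49). The list does not hold the scarce miR-409a-5p, another product of that cluster, named after its values were seen. It had 4.92, 2.48 and 2.35 CPM at the high dose and 0.728, 1.11 and 0.714 CPM in controls and was called higher at 1.87 ± 0.67 (edgeR adjusted p = 0.029), but not without high dose replicate 1 (1.47) or control replicate 1 (1.77) or 3 (1.72).

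**Figure D3:**
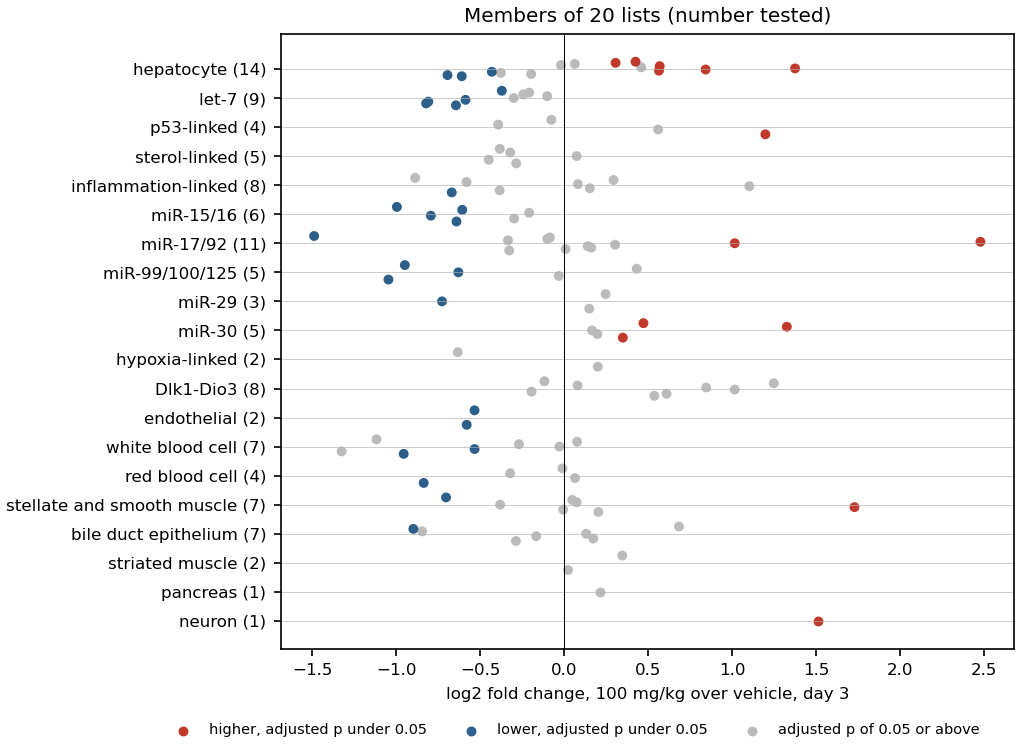
Log2 fold change of the high dose over vehicle on day 3 (horizontal axis) for every tested member of 20 lists (1 row each, number tested in brackets), with red for higher, blue for lower and grey for not passing an adjusted p of 0.05. The let-7 row has 5 lower points and the miR-15/16 row 4 with 0 higher in each, the miR-30 row has 3 higher points, and the hepatocyte row has 6 higher and 3 lower.

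Markers of other cell types differed between the high dose and control in some lists, and their part in the results above was not tested. The endothelial pair fell, with a change of -0.53 ± 0.10 in miR-126a-5p and -0.58 ± 0.16 in miR-126a-3p, and their sum was 18910 to 20580 CPM at the high dose and 28710 to 29360 CPM in controls. Of 7 white blood cell miRNAs tested, 2 fell and 0 rose, against 16.2% lower over all miRNAs. The 5 that did not pass ran from -1.32 (miR-150-3p) to 0.08 (miR-342-3p), with miR-142-5p at -0.03 ± 0.21. miR-150-5p, a lymphocyte miRNA, had 307.1, 290.0 and 347.6 CPM at the high dose and 427.7, 517.3 and 886.7 CPM in controls. Its high control was again replicate 3. miR-142-3p, at -0.53 ± 0.21 (adjusted p = 0.049), passed in none of the fits that left out control replicate 1 or 2 or any 1 high dose library, where it ran from -0.60 to -0.37, and the list sum overlapped, at 1825 to 2028 CPM in high dose livers and 1762 to 3149 CPM in controls. Of 4 red blood cell miRNAs miR-144-3p passed at -0.84 ± 0.31, but not without control replicate 2 (-0.49) or high dose replicate 1 (-0.70) or 2 (-0.66), and the list sum was 2574 to 4623 CPM at the high dose and 2539 to 4148 CPM in controls.

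In the list of 7 tested stellate and smooth muscle miRNAs, miR-145-5p rose by 1.73 ± 0.23, with 357.6, 326.7 and 378.4 CPM at the high dose, against 83.5, 75.1 and 162.4 CPM in controls. Its own partner miR-145-3p was at -0.38 ± 0.18 and its cluster neighbour miR-143-3p at 0.20 ± 0.11, and neither passed. miR-214-3p fell, at -0.70 ± 0.22, but not without high dose replicate 2 (-0.57), and miR-214-5p was at 0. The list sum was 46110 to 49090 CPM at the high dose and 36620 to 49990 CPM in controls. Of 7 tested bile duct epithelium miRNAs only miR-141-3p passed, against 35.1% over all miRNAs. The list sum was 1135 to 1652 CPM at the high dose and 1363 to 1618 CPM in controls, with miR-200c-5p at 0. miR-200c-3p, at -0.85 ± 0.35, passed without high dose replicate 3 (-1.30), while miR-429, at 0.68 ± 0.28 (edgeR adjusted p = 0.057), passed without control replicate 3 (0.77), in DESeq2 (0.67), with DESeq2's size factors (0.67), with day 3 libraries alone (0.67), with the 6 libraries alone (0.74) and with abundant miRNAs alone (0.66). Of the striated muscle list 2 of 7 were tested and 0 passed, with miR-1-3p, miR-206-3p, miR-208a-3p and miR-208b-3p at 0 and a list sum of 29.5 to 39.9 CPM at the high dose and 15.1 to 41.9 CPM in controls. The pancreas miRNA miR-375-3p, at 0.21 ± 0.22, did not pass, with 216.7 to 330.0 CPM at the high dose and 195.3 to 279.4 CPM in controls. The neuron list had 1 tested member, miR-9a-5p, which rose by 1.51 ± 0.38 at levels of 6.53 to 9.06 CPM at the high dose and 1.999 to 3.81 CPM in controls.

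In some hairpins the strands changed in opposite directions. Of 96 hairpins with both products tested, 15 had both past the threshold: 4 with both higher, 4 with both lower and 7 in opposite directions. In all 7 the 5p product fell and the 3p product rose. The hairpins were miR-28, miR-322, miR-872, miR-151, miR-99a, miR-194 and let-7d. Over the 96, the change of the 5p product was below that of the 3p product in 56, with a median difference of -0.1. Of all 146 5p products tested 21 rose and 28 fell, and of all 160 3p products 39 rose and 21 fell. Over all 328 miRNAs, 18.9% rose and 16.2% fell. In controls the 3p product was the rarer one in all 7, while at the high dose it was the rarer one in 5, all but miR-28 and miR-151.

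The miR-28 hairpin showed the largest shift. Its 5p product made up 14.77% ± 0.476 of the hairpin's counts at the high dose and 55.19% ± 6.20 in controls (SD, n = 3 each), so the more abundant strand differed between the groups. miR-28-5p itself changed only by -0.38 ± 0.11, with 604.0, 558.5 and 537.7 CPM at the high dose against 759.4, 725.6 and 723.8 CPM in controls, and most of the shift came from the rise of miR-28-3p. For miR-322 the 5p share was 72.91% ± 1.95 at the high dose and 96.78% ± 1.14 in controls. For miR-872 it was 51.8% ± 0.345 at the high dose and 78.41% ± 4.76 in controls, with miR-872-3p up by 1.32 ± 0.19 and miR-872-5p down, at -0.42 ± 0.10. The let-7d share was 71.13% ± 0.844 at the high dose and 84.13% ± 1.22 in controls, and the miR-151 share 45.19% ± 0.47 at the high dose and 58.42% ± 2.11 in controls.

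Smaller differences in share were seen for miR-99a, at 92.95% ± 0.601 in high dose livers and 97.96% ± 0.405 in controls, and miR-194, at 98.79% ± 0.169 in high dose livers and 99.38% ± 0.167 in controls. These 7 hairpins were chosen because their products were called in opposite directions, whichever strand rose. A difference in share therefore follows from the choice, and it is given as a description, with no test. Some calls among the 7 pairs rested on single libraries, the scaling or the filter. That of let-7d-3p (0.51 ± 0.20) was lost without control replicate 1 (0.45) or 2 (0.45) or high dose replicate 1 (0.42) or 2 (0.56). The let-7d-3p call was also lost with library size alone (0.48) or no low-count filter (0.54). That of miR-151-3p (0.42 ± 0.15) was lost without high dose replicate 1 (0.39) or control replicate 1 (0.37) or 2 (0.39), and that of miR-151-5p (-0.34 ± 0.12) without high dose replicate 2 (-0.29) or 3 (-0.33) or control replicate 1 (-0.35). miR-151-3p was also lost with a filter of 10 CPM in at least 3 libraries (0.37), and miR-151-5p with no low-count filter (-0.31). miR-194-3p, at 0.56 ± 0.20, no longer passed without high dose replicate 1 (0.55) or 3 (0.52) or control replicate 2 (0.42). Nor did it pass with library size alone (0.54) or no low-count filter (0.59). The miR-28-5p call ended with no low-count filter (-0.35). The miR-22 hairpin behaved otherwise, since both strands rose: its 5p share was 0.1214% ± 0.00938 at the high dose and 0.00809% ± 0.000896 in controls.

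**Figure D4:**
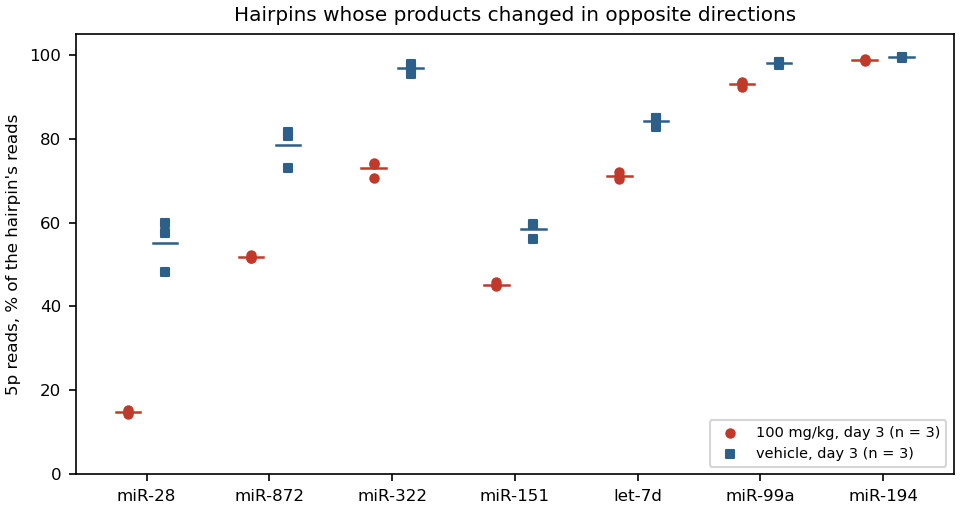
Share of 5p counts among all counts of a hairpin (vertical axis, %) for the 7 hairpins whose products changed in opposite directions, with 1 point per library, a line for the mean, and high dose livers left of vehicle livers. The hairpins were chosen for calls in opposite directions, whichever strand rose, so a difference in share follows from the choice. The sizes run from 14.77% against 55.19% for miR-28 to 98.79% against 99.38% for miR-194.

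Of 11 tested 3p products of let-7 and miR-98 hairpins, 5 rose and 0 fell, let-7d-3p among them, against 18.9% higher over all miRNAs. let-7a-1-3p and let-7c-2-3p share 1 mature sequence (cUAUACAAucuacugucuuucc), so their counts cannot be told apart. They amount to 1 measurement, though both names are counted among the 5 that rose and the 11 tested. They were at 145.0, 133.4 and 136.5 CPM at the high dose, against 59.7, 53.1 and 76.2 CPM in controls for let-7a-1-3p, a log2 fold change of 1.13 ± 0.20. let-7f-2-3p, at 68.1, 63.0 and 67.9 CPM at the high dose against 24.3, 17.3 and 27.9 CPM in controls, rose by 1.52 ± 0.26. The scarce let-7e-3p, at 6.99, 4.73 and 7.29 CPM at the high dose against 1.21, 0.666 and 1.67 CPM in controls, rose by 2.40 ± 0.36. The other 6 did not pass. let-7c-1-3p was at 0.96 ± 0.54, let-7b-3p at 0.23 ± 0.17, miR-98-3p at 0.17 ± 0.32, let-7i-3p at 0.12 ± 0.23, let-7f-1-3p at 0.03 ± 0.16 and let-7g-3p at -0.20 ± 0.19.

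Seed families were next compared over the 292 miRNAs with a sequence, which fall into 234 seeds. Tested miRNAs without a sequence, among them miR-15a-5p, miR-99a-5p and miR-30d-5p, are left out of these counts and sums. Of the 32 seeds with at least 2 tested members, 10 had calls only higher, 8 only lower, 12 none and 2 in both directions. The family with the seed AUUGCAC was 1 of the 2. miR-92a-3p, its main member, had 10650, 11990 and 10490 CPM at the high dose and 5868, 4389 and 6139 CPM in controls, and rose by 1.01 ± 0.17. miR-92b-3p, at 14.5, 17.8 and 17.6 CPM at the high dose and 2.43, 2.67 and 3.81 CPM in controls, rose by 2.48 ± 0.28, while miR-363-3p fell. miR-25-3p (-0.33 ± 0.15) and miR-32-5p (-0.50 ± 0.20) did not pass, though both did without control replicate 3 (-0.47 and -0.66) or high dose replicate 1 (-0.41 and -0.69). Both also passed in DESeq2 (-0.34 and -0.51) and with DESeq2's size factors (-0.34 and -0.50). With a filter of 10 CPM in at least 3 libraries they passed as well (-0.39 and -0.56). Because of miR-92a-3p, the summed level of this seed was 12690 ± 740 CPM at the high dose and 7548 ± 703 CPM in controls.

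In the family with the seed CCCUGAG, miR-351-5p had 489.1, 480.6 and 444.4 CPM at the high dose and 265.2, 168.6 and 303.7 CPM in controls, and rose by 0.94 ± 0.20 as miR-125b-5p fell. miR-125a-5p, at 0.43 ± 0.21, did not pass, and it did without control replicate 3 (0.59). The summed level of the seed was 3696 ± 58.2 CPM at the high dose and 4782 ± 481 CPM in controls, so the fall of the abundant miR-125b-5p exceeded the gain of the other members. The seed AGCAGCA of miR-16-5p and miR-322-5p summed to 7769 ± 799 CPM at the high dose and 13070 ± 1570 CPM in controls. For GCUACAU, of miR-221-3p and miR-222-3p, the sum was 179.2 ± 41.7 CPM at the high dose and 56.8 ± 17.4 CPM in controls. By contrast, 0 of 4 members passed with the seed AAAGUGC of miR-17-5p and 0 of 4 with the seed ACAUUCA of miR-181, a regulator of lymphocyte development. Over all miRNAs 35.1% passed. miR-17-5p, at -0.33 ± 0.14, passed without control replicate 3 (-0.43) and in DESeq2 (-0.34). It also passed with a filter of 10 CPM in at least 3 libraries (-0.38) and with abundant miRNAs alone (-0.36). miR-20a-5p, of the same seed, passed when only the 6 libraries were fitted (0.35). The miR-181 sum was 8882 ± 414 CPM at the high dose and 9657 ± 704 CPM in controls, where miR-181a-5p was at -0.12 ± 0.12.

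Hairpins that lie within 10 kb of each other in RefSeq are often cut from the same primary transcript. There were 26 such clusters with at least 3 tested products, and 6 of them had calls in both directions. Over all miRNAs, 18.9% were called higher and 16.2% lower. All 5 tested products of the miR-23a/27a/24-2 cluster fell: miR-24-2-5p, miR-24-3p at -0.67 ± 0.16, miR-27a-3p at -0.38 ± 0.11, miR-23a-3p at -0.33 ± 0.12 and the scarce miR-27a-5p at -1.37 ± 0.42. miR-24-3p is also made from the miR-23b/27b/24-1 cluster and is counted in both. In the miR-23b/27b/24-1 cluster 3 of 5 products fell, with miR-23b-3p at -0.69 ± 0.16. There miR-24-1-5p, at -0.84 ± 0.36, did not pass except without control replicate 3 (-1.12). The call of miR-23a-3p ended without control replicate 3 (-0.28) or high dose replicate 1 (-0.32) or 2 (-0.30), and that of miR-27a-5p without high dose replicate 3 (-0.99). In the X-linked cluster of miR-322, miR-351, miR-503, miR-542 and miR-450, 3 of 9 products rose and 1 fell. The miR-17/92 cluster had 1 of 10 products past the threshold, miR-92a-3p, with miR-20a-5p at 0.30 ± 0.18. None of the 3 products of the miR-183/96/182 cluster passed, with miR-182 at 0.07 ± 0.21, miR-183-5p at -0.32 ± 0.42 and miR-96-5p at -0.38 ± 0.33.

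miR-871-3p was called lower (edgeR adjusted p = 0.0016) on the strength of 1 library, and was named after its values were seen. Its counts were 0, 0 and 0 in the high dose livers and 0, 14 and 588 in control livers. Without control replicate 3, which holds the 588, it was too sparse to test. miR-130a-3p, at -0.38 ± 0.12, and miR-130b-3p, at -0.65 ± 0.23, share a seed and both fell. Their calls were lost without high dose replicate 3 (-0.33 and -0.55), and that of miR-130b-3p also without control replicate 2 (-0.50) or high dose replicate 1 (-0.66).

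Set against the middle dose of the same day, within the same cluster of libraries, the high dose differed far less. In edgeR, 23 of 328 miRNAs (7.01%) passed, 13 of them higher (3.96%) and 10 lower (3.05%), with 4 higher by at least 2-fold and 60 at an unadjusted p under 0.05. This count rested on single libraries. It was 0 without middle dose replicate 1 or replicate 3, 43 without middle dose replicate 2, and 3, 14 and 2 without high dose replicates 1, 2 and 3. With library size alone as scaling, 17 of 20 calls were higher (85.0%), against 56.5% as given, with the median of all miRNAs shifted to 0.1.

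miR-331-3p had the smallest p of those named in this comparison. The middle dose libraries had 37.4, 76.4 and 43.9 CPM, below all 3 high dose libraries, and the difference was 1.36 ± 0.27 (edgeR adjusted p = 0.0065). Its call was lost without middle dose replicate 1 (1.21) or 3 (1.27). miR-34a-5p was higher at the high dose by 1.08 ± 0.30, against 27.4, 35.9 and 12.5 CPM in middle dose livers, of which 1 exceeded the lowest high dose value. miR-582-3p was higher by 1.62 ± 0.47, with 39.9, 146.0 and 71.0 CPM at the high dose and 29.8, 33.1 and 20.3 CPM at the middle dose. Smaller rises were those of miR-598-3p at 0.97 ± 0.29, miR-15b-3p at 0.83 ± 0.25 and miR-802-3p at 0.82 ± 0.22. Among those lower, miR-125b-5p was at -0.74 ± 0.17, with 2809, 2538 and 3687 CPM in middle dose livers, and miR-21-5p at -0.68 ± 0.18, with 64150, 62240 and 76620 CPM in middle dose livers. miR-342-3p was at -0.92 ± 0.25, miR-155-5p, a marker of activated immune cells, at -0.91 ± 0.27, miR-26b-3p at -0.65 ± 0.17 and miR-145-3p at -0.61 ± 0.18. Each of these 12 calls was lost in at least 1 of the other fits, all of them without middle dose replicate 1 or 3.

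Most leaders of the high dose were also called at the middle dose against control, and 0 at the low dose. These comparisons share the day 3 control libraries, so they are given side by side without a test of likeness. Against control, the 12 largest rises ranged from 0.02 to 0.80 at the low dose, where 0 were called, from 0.53 to 3.70 at the middle dose, where 11 were called, and from 1.84 to 4.21 at the high dose. The miRNA not called at the middle dose was miR-331-3p. Over all miRNAs, 38.1% were called at the middle dose against control, 20.1% higher and 18.0% lower, and 0 at the low dose, where 25 had an unadjusted p under 0.05 in edgeR. In direct comparison of the high with the middle dose, the same 12 ranged from -0.36 to 1.36, and miR-331-3p was the only 1 that passed. The 12 falls ranged from -0.72 to 0.16 at the low dose, with 0 called, and from -1.14 to -0.21 at the middle dose, with 8 called. Set directly against the middle dose, these 12 ranged from -0.74 to 0.22 at the high dose, and 2 passed. The rises and falls were chosen by high dose values that enter this direct comparison, so its ranges are only a description.

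**Figure D5:**
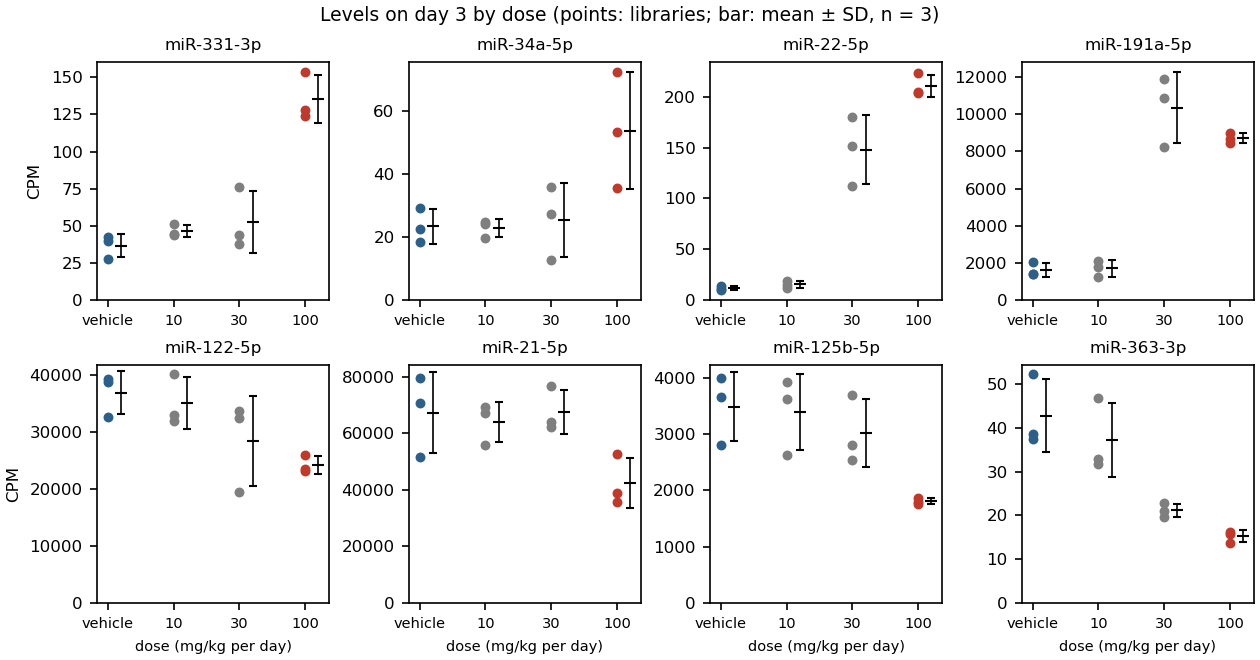
CPM on day 3 (vertical axes from 0) of 8 miRNAs by daily dose, from vehicle to 100 mg/kg, with points for the 3 libraries of each dose and bars for mean and SD. miR-331-3p reaches 124.0 to 153.9 CPM only at 100 mg/kg, against 37.4 to 76.4 CPM at 30 mg/kg, while miR-22-5p and miR-191a-5p are already high at 30 mg/kg.

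The high dose effect of day 3 was also tested against that of the later days, as the difference of the 2 effects. For day 7 minus day 3, both edgeR and DESeq2 called 0 of 328, and 36 had an unadjusted p under 0.05 in edgeR. For day 14 minus day 3, both tools again called 0, and 24 had an unadjusted p under 0.05 in edgeR. Over the 12 largest rises, the day 7 effect minus the day 3 effect ran from -0.93 to 0.65, with SEs of 0.25 to 0.51, and for day 14 from -0.87 to 0.56. These 12 were chosen by their day 3 effect, which enters each difference, so the ranges are only a description. The smallest p values for day 7 belonged to miR-182 at 1.10, miR-210-5p at -1.39 and miR-421-3p at -0.86. For day 14 they belonged to miR-182 at 1.03, miR-18a-3p at -3.02 and miR-582-3p at -2.11. miR-18a-3p was scarce, with a mean of 1.59 CPM over the 6 libraries of day 3. Mean levels of miR-182 on days 3, 7 and 14 were 1346, 654.8 and 937.0 CPM in controls and 1417, 1473 and 2012 CPM at the high dose. Without control day 7 replicate 1, 19 passed for day 7, 16 of them larger on day 7, among them miR-182 at 1.22 and, in the other direction, miR-210-5p at -1.39. A difference between days that did not pass is not shown to be absent at SEs of this size.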

How the data were processed

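Liver small RNA was sequenced from 35 samples, with libraries made by Illumina TruSeq Small RNA kits per the labels' protocols. The authors deposited raw counts of reads for 763 mature miRNAs, in 37 columns and without normalization. Middle dose day 14 replicates 2 and 3 had 2 runs each, which were summed. The genome build was rn6 per the submitters' processing notes. The sources used here do not give the aligner, the counting program, the miRNA release or the treatment of reads that match several miRNAs, so counts of near-identical miRNAs are uncertain. Reads carry no stated molecular identifiers.

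Samples were grouped by their labels. filterByExpr (minimum count 10, minimum total 15) kept 328 miRNAs. TMM factors scaled the counts, and edgeR 4.0.16 (R 4.3.3, limma 3.58.1) fitted them with 1 mean per group over all 12 groups, which share 1 estimate of the spread (23 residual degrees of freedom), and robust quasi-likelihood F-tests, two-sided. p-values were adjusted by Benjamini-Hochberg over the 328 within each comparison, at a threshold of 0.05. The SE was taken as the log2 fold change over the root of its F value. CPM uses TMM-scaled totals, and a prior count of 2 was added before principal components. Hairpin shares use counts. Mature sequences and neighbouring hairpins come from RefSeq GRCr8, matched by name. Figures were drawn with matplotlib 3.10.9.

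The members and the 20 lists were chosen with earlier results of these data known. Named miRNAs are the 12 largest changes each way among those past the threshold with a mean of at least 10 CPM and all 3 high dose libraries on one side of all controls, the 10 most abundant, up to 4 members a list, 5 always given (miR-331-3p, miR-21-5p, miR-122-5p, miR-34a-5p and miR-192-5p), miRNAs counted in 1 group alone, up to 8 hairpins, up to 6 each way against the middle dose, the 6 largest seed families and the 3 smallest p values where none passed. The alternatives changed the scaling (DESeq2 size factors, or library size), the filter (none, or a CPM of 10 in 3 or more libraries), the tool (DESeq2 1.42.0), the groups fitted and the block by replicate number, and left out single libraries. Chosen after seeing the data was a fit of miRNAs with a mean of at least 100 CPM. On simulated counts for this comparison with 328 miRNAs, the fit recovered 52% of 1.5-fold and 80% of 2-fold changes, and made 1 call among 128 unchanged miRNAs. There 99 miRNAs were changed 1.5-fold and 97 2-fold, in both directions, a larger share than the 35.1% called in the data. How far these rates hold for the data was not tested.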

Additional observations from a re-analysis of the deposited data

How the results depend on the processing

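For the high dose against control on day 3, the count of 115 miRNAs was 120 with DESeq2's size factors, 114 with library size alone, 98 with no low-count filter, 114 with the stricter filter, 122 in DESeq2, 118 with day 3 libraries alone and 115 with the 6 libraries alone. It was 74 (32 higher) when only the 127 miRNAs with a mean of at least 100 CPM over all 35 libraries were fitted, an alternative chosen after seeing the data, where fewer miRNAs were tested. Leaving out 1 library gave 98 to 126. Of 128 named miRNAs, 91 stayed on the same side of the threshold in every fit that gave a value, and none changed direction where it was called. Where the results name libraries whose omission moved a call, another scaling, filter or tool moved some of these calls as well. For the high against the middle dose, the count of 23 was 5 with no low-count filter, 2 with day 3 libraries alone, 11 with the 6 libraries of the pair alone and 0 to 43 when 1 library was left out. The cause was not tested. For the difference of the day 7 and day 3 effects, leaving out 1 library gave 0 to 19. Replicate numbers are shared between groups, but same-numbered high dose and control deviations correlated at -0.097, -0.164 and 0.127, and 1 of 3 high dose libraries correlated best with the control of its own number, so they do not pair the samples. With the number as a replicate block, 113 miRNAs passed against control, 20 against the middle dose and 0 in each difference between days. Depth limits the scarce miRNAs most: 227 of the untested rows had counts in these 6 libraries, and 152 of the counted rows held 1 to 9 counts in all.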

Other observations

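The mature sequences of the miRNAs that changed differed little in base composition. The median GC content was 47.8% for the 56 with a sequence that were higher at the high dose, 45.5% for the 46 that were lower and 47.8% for the 190 that did not pass. Across the 292 miRNAs, which share these libraries and are not independent replicates, Spearman's rho between GC content and log2 fold change was 0.02. Of those higher at the high dose 35 were 3p and 19 were 5p products, and of those lower 19 were 3p and 24 were 5p products. Of all 292, 141 were 3p and 134 were 5p products. A final G was found in 23.2% of those higher, 32.6% of those lower and 21.6% of those not passing.

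Of all 763 rows, miR-421-5p was counted in every high dose library and no control, with 2, 2 and 1 counts at the high dose against 0 in each control. miR-709 had 0 counts in each high dose library and 1 in each control. Both are too sparse for a fold change.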
